A study of Homo sapiens with 18 samples.

Results

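The genes described here are 8 annexins, ANXA1, ANXA2, ANXA3, ANXA4, ANXA5, ANXA6, ANXA7 and ANXA11, found by their Ensembl identifiers among the 63677 genes of the count table. All 8 were among the 15576 genes tested, a gene being tested where enough of the 18 libraries (at least 10) gave it more than 5 counts. The set was selected on results of these same libraries, in which ANXA1 and ANXA2 were lower with every TBX, so their values against the controls are given below as a description with no test. Expression was measured by RNA-seq in NCI-H1299, a human lung cancer cell line, after transient transfection with a plasmid for a TBX transcription factor. There were 3 libraries each for TBX2 (human, Flag-tagged), TBX3 (human, HA-tagged), TBX4 (human, Flag-tagged) and TBX5 (mouse Tbx5, HA-tagged), and as controls 3 for an empty vector, called EV, and 3 with the label Ctl. All groups share the one cell line, and the treatment of Ctl and the backbone of EV are not given in the sources used here. Only part of the cells in such a transfection takes up plasmid, so each level averages transfected and untransfected cells, and fewer cells with a lower level and less RNA per cell cannot be told apart. The labels do not say that libraries of a group came from separate cultures, so the spread between them may be technical.

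Annexins are proteins that bind acidic phospholipids in membranes when calcium is present, through a repeated core domain, and differ mainly in their N-terminal tails. ANXA1 was described as a protein induced by glucocorticoids that inhibits phospholipase A2 and signals through formyl peptide receptors in resolving inflammation. ANXA2 forms a complex with S100A10 at the plasma membrane, where it binds plasminogen and tissue plasminogen activator, and with the large scaffold protein AHNAK. ANXA5 binds exposed phosphatidylserine and is the usual stain for apoptotic cells, and several annexins, ANXA6 among them, take part in repair of the plasma membrane. T-box factors bind DNA at a short core, GGTGTG, often as part of a longer half-site, AGGTGTGA.

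The plasmid genes followed the labels. TBX2 had 27704 to 47916 counts in its own libraries and at most 59 elsewhere, TBX3 135416 to 320890 against at most 119, TBX4 85197 to 109159 against at most 19, and TBX5 1161 to 1302 against at most 1. The TBX5 plasmid carries the mouse gene and reads were aligned to the human genome, so its count cannot be compared with those of the other factors. The title of the third TBX4 library (replicate c) carries the number of TBX4 and the name TBX5, and the library was placed by its number. Its TBX4 count was 85197 and its TBX5 count was 1. Libraries held 7365221 to 11743179 counts, of which 10.7% to 53.5% fell on the most counted gene, ENSG00000266658. That share was 13.2% to 18.6% in the TBX4 libraries, 22.5% to 53.5% in the TBX5 libraries and 12.4% to 40.2% in the controls, which is why the scaling of libraries matters below. Among markers chosen after the counts were seen, the epithelial keratin KRT18 had 292 to 1155 counts, KRT8 119 to 613 and the intermediate filament gene VIM 4051 to 13492, while EPCAM (0 to 3), the lung factor NKX2-1 (0 to 4), the leukocyte gene PTPRC (0 to 4) and the endothelial gene PECAM1 (0 in all 18) were at or near 0.

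Because the plasmids encode factors that bind GGTGTG, the 250 bases before each RefSeq start of the annexins were searched on both strands for GGTGTG, for AGGTGTGA and for TATAAA, the core of a TATA box. ANXA4, ANXA6 and ANXA11 had several such starts. GGTGTG is contained in AGGTGTGA. The windows come from RefSeq (GRCh38.p14) and each matched GRCh37 at a single place. The window of ANXA1 is printed because it alone among the annexin windows held GGTGTG, and that of ANXA5 because its level differed least between the TBX groups and the controls. The capitals mark GGTGTG and TATAAA.

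ANXA1: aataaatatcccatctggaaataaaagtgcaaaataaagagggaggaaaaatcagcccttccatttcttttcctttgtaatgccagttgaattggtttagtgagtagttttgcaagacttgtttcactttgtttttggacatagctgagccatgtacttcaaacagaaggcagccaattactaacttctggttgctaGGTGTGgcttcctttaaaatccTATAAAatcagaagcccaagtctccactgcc
ANXA5: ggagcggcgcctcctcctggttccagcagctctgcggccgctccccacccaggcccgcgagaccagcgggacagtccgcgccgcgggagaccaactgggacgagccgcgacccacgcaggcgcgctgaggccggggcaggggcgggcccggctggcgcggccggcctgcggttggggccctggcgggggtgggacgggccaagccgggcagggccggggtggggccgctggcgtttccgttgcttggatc

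The ANXA1 window is chr9:75766531-75766780 on the plus strand of GRCh37, directly before the annotated gene (chr9:75766781-75785309), with 38.4% G and C. Its GGTGTG begins 53 bases and its TATAAA 31 bases before the start. The ANXA5 window is chr4:122618136-122618385 on the minus strand, with 78.8% G and C and neither motif, and its last bases run into the first exon of longer annotated transcripts. GGTGTG stood in 14.2% of 35116 RefSeq windows of this length, AGGTGTGA in 0.786% and TATAAA in 10.7%, so a GGTGTG by itself is a common sequence, and no annexin window held AGGTGTGA. The window of ANXA2 (chr15:60690186-60690435, minus strand, 78.0% G and C) held no GGTGTG. It held a TATAAA at the same distance from the start, 31 bases, as ANXA1. The only other annexin window with TATAAA was one of ANXA11 (chr10:81965565-81965814, minus strand), 61 bases before the start. The 30 bases around the TATAAA of ANXA1 and ANXA2 are shown for comparison, with TATAAA in capitals.

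ANXA1: cctttaaaatccTATAAAatcagaagccca
ANXA2: ggatgtggcgggTATAAAagccccacccag

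These stretches are chr9:75766738-75766767 on the plus strand and chr15:60690199-60690228 on the minus strand. A motif in a window is a description of sequence and not a measured binding site.

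In the control libraries the annexins differed widely in level. Levels of different genes are compared per kb of canonical transcript, as CPM, the reads of a gene scaled to a common library size with TMM factors, over 6 controls. ANXA2 stood at 226 ± 6.07 CPM per kb (SD, n = 6), ANXA1 at 62.6 ± 3.91, ANXA5 at 52.3 ± 3.00, ANXA6 at 23.0 ± 1.85 and ANXA7 at 10.7 ± 0.591. ANXA4 (8.25 ± 0.847) and ANXA11 (7.93 ± 0.459) were neighbours that did not differ beyond their spread. ANXA3 was at 0.427 ± 0.217. Per kb of all annotated exons the order was different, because transcripts of unequal length are annotated for these genes, and ANXA2 (30.3 CPM per kb), ANXA5 (29.3) and ANXA1 (19.7) then came first. ANXA3 had 1 to 15 counts a library, with a floor of 3 counts at 0.191 to 0.595 CPM, and 1 EV and 1 TBX5 library had 1 count of it. No direction was read from ANXA3.

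**Figure D1:**
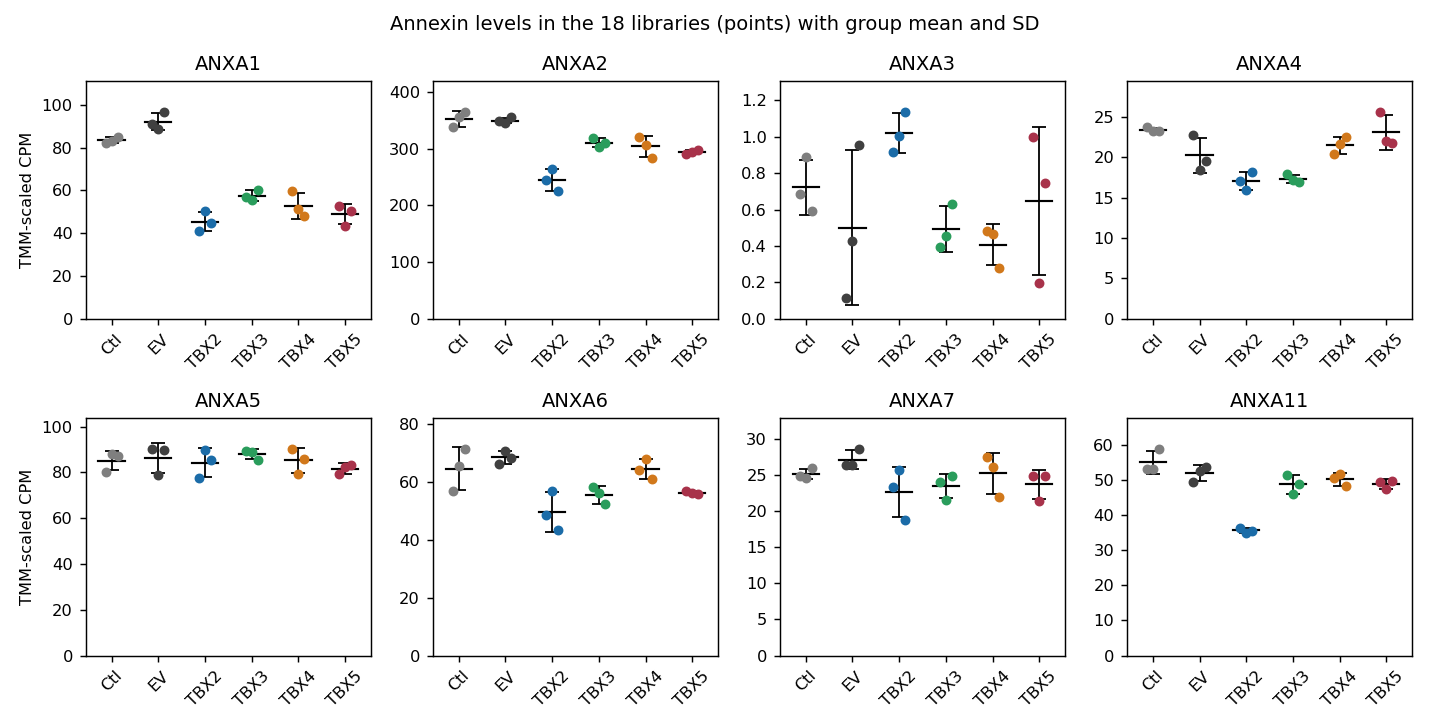
TMM-scaled CPM of the 8 annexins in each of the 18 libraries (points), by group, with the group mean (line) and SD (bar), each panel starting at 0 with its own scale. The TBX libraries lie below all 6 controls for ANXA1 and ANXA2, while the groups overlap for ANXA5 and ANXA3 is near the floor.

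ANXA1 was the annexin that stood furthest from the controls in every TBX group. Its CPM was 82.2, 83.0 and 85.1 in the Ctl libraries and 90.9, 88.9 and 96.6 in the EV libraries. With TBX2 it was 41.2, 50.3 and 44.6, and with TBX3 it was 56.7, 55.4 and 60.3. The TBX4 libraries had 59.6, 51.1 and 47.9, and the TBX5 libraries 52.5, 43.5 and 50.4. Every one of the 12 TBX libraries was below the lowest control, and the EV libraries were all above the Ctl libraries. Against the 6 controls the log2 fold change was -0.95 ± 0.07 (SE) for TBX2, -0.61 ± 0.06 for TBX3, -0.74 ± 0.07 for TBX4 and -0.84 ± 0.07 for TBX5. Against the Ctl libraries alone these were -0.87, -0.53, -0.66 and -0.77, and against the EV libraries alone -1.01, -0.68, -0.81 and -0.91. Without TBX4 replicate c the TBX4 value was -0.67.

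ANXA2, the most highly expressed annexin, was lower by less. Its CPM was 337, 355 and 364 in Ctl and 348, 345 and 355 in EV, and both kinds of control overlapped. It was 245, 264 and 225 with TBX2 and 319, 303 and 309 with TBX3. The TBX4 libraries had 321, 307 and 284, and the TBX5 libraries 291, 293 and 298. All 12 TBX libraries were again below the lowest control, and the TBX2 libraries were below every other library. The log2 fold changes were -0.52 ± 0.06, -0.18 ± 0.05, -0.21 ± 0.05 and -0.26 ± 0.05 in the order TBX2 to TBX5. Leaving out 1 library at a time gave -0.20 to -0.16 for TBX3 and -0.25 to -0.16 for TBX4, with the values nearest 0 without TBX3 replicate b and TBX4 replicate c. Counted over library totals rather than TMM-scaled sizes, ANXA2 was 0.053 above the controls with TBX4, a scaling under which the median of all genes was itself 0.25 higher.

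ANXA6, which has a doubled core and lies at the plasma membrane and endosomes, had 56.7, 65.6 and 71.4 CPM in Ctl and 66.3, 70.7 and 68.3 in EV. It had 48.6, 56.7 and 43.3 CPM with TBX2 and 58.2, 56.1 and 52.2 with TBX3. The TBX4 libraries had 64.1, 68.0 and 61.0, and the TBX5 libraries 56.9, 56.0 and 55.8. Ctl replicate a, at 56.7, lay among the TBX2, TBX3 and TBX5 libraries, so these groups overlapped the controls. The log2 fold changes were -0.41 ± 0.08, -0.27 ± 0.07, -0.05 ± 0.07 and -0.24 ± 0.07. The TBX5 value lay between -0.28 and -0.22 when 1 library was left out.

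ANXA11, whose long tail is known for roles in RNA granule transport and cell division, was at its lowest with TBX2. Its CPM was 52.9, 53.0 and 58.8 in Ctl and 49.2, 52.6 and 53.7 in EV, and 36.4, 34.8 and 35.6 with TBX2, below every other library. The TBX3 libraries had 51.4, 46.0 and 48.9, the TBX4 libraries 50.5, 51.8 and 48.1 and the TBX5 libraries 49.5, 47.2 and 49.7, each group overlapping the controls. The log2 fold changes were -0.59 ± 0.07 for TBX2 and -0.13 ± 0.06, -0.09 ± 0.06 and -0.13 ± 0.07 for TBX3, TBX4 and TBX5.

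ANXA4, a regulator of membrane and ion channel function in epithelia, divided the TBX groups. Its CPM was 23.7, 23.3 and 23.3 in Ctl and 22.7, 18.5 and 19.6 in EV. It was 17.1, 16.0 and 18.2 with TBX2 and 17.95, 17.2 and 16.9 with TBX3, below every control. The TBX4 libraries had 20.4, 21.6 and 22.5 and the TBX5 libraries 25.6, 22.0 and 21.8, inside or above the control range. The log2 fold changes were -0.36 ± 0.10, -0.33 ± 0.09, -0.02 ± 0.08 and 0.10 ± 0.10. The choice of control moved these values: against EV alone they were -0.24, -0.22, 0.09 and 0.22, and against Ctl alone -0.46, -0.44, -0.13 and -0.00.

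ANXA5 and ANXA7 overlapped the controls in every TBX group. ANXA5, at 85.7 ± 4.92 CPM in the controls (n = 6), was at 84.3 ± 6.37, 88.0 ± 2.15, 85.2 ± 5.46 and 81.7 ± 2.26 with TBX2, TBX3, TBX4 and TBX5 (n = 3 each), and its log2 fold changes lay between -0.07 and 0.04. ANXA7, which aids vesicle fusion, was at 26.2 ± 1.44 CPM in the controls and 22.6 ± 3.47, 23.5 ± 1.68, 25.2 ± 2.87 and 23.7 ± 2.00 in the TBX groups. Its log2 fold changes lay between -0.19 and -0.05. The largest, with TBX2, was -0.30 without TBX2 replicate b and -0.09 without TBX2 replicate c.

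The next counts describe the set and are no test of it, since ANXA1 and ANXA2 were chosen for being lower with every TBX. The annexins lower past an adjusted p of 0.1 numbered 5 for TBX2 (ANXA1, ANXA2, ANXA4, ANXA6 and ANXA11), 4 for TBX3 (ANXA1, ANXA2, ANXA4 and ANXA6), 2 for TBX4 (ANXA1 and ANXA2) and 3 in the TBX5 comparison (ANXA1, ANXA2 and ANXA6), out of 8. Among the 15576 genes tested, 15.6%, 6.40%, 6.07% and 6.12% were called lower in these comparisons. No annexin was called higher, against 17.0%, 8.47%, 6.97% and 6.55% of all genes. The median log2 fold change of the 8 was -0.39, -0.22, -0.07 and -0.13, and that of all genes -0.00, -0.00, -0.01 and -0.00. The libraries of a TBX lay below all 6 controls for 4, 3, 2 and 2 annexins, as they did for 11.6%, 6.14%, 5.74% and 6.55% of all genes. The 4 comparisons share their control libraries, and since the annexins were chosen on them, nothing is read from these shares.

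**Figure D2:**
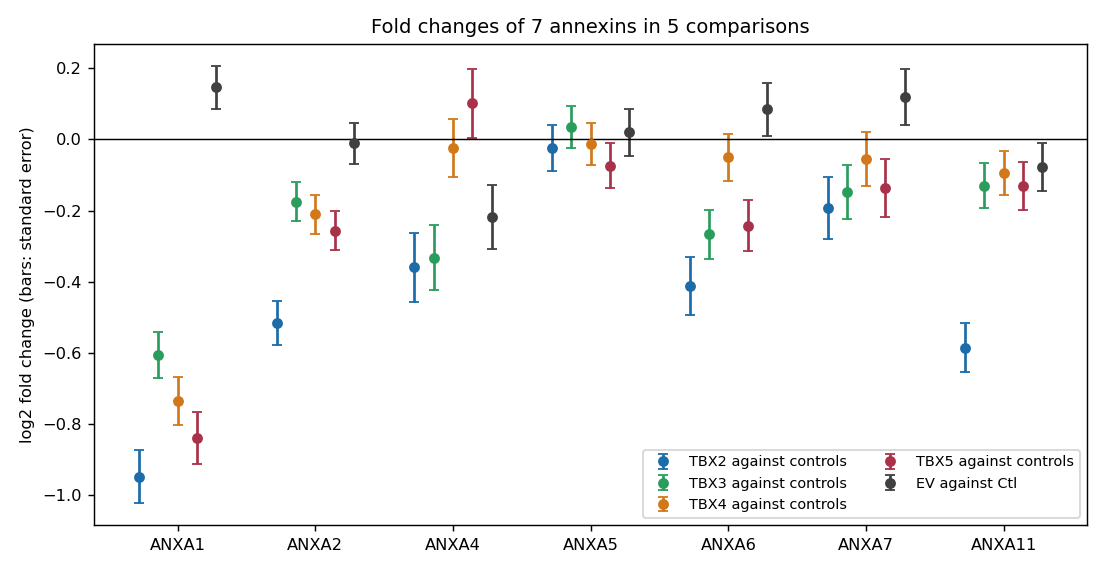
Log2 fold changes (points) with standard errors (bars) of 7 annexins, without ANXA3, for each TBX against the 6 controls and for EV against Ctl. ANXA1 lies between -0.95 and -0.61 in the 4 TBX comparisons and ANXA5 within 0.08 of 0.

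The fold changes depend on how libraries are scaled, so the make-up of the annexin counts was also taken within each library, which needs no scaling. ANXA1 made up 12.7% ± 0.674 of the counts of the 8 annexins in the controls (n = 6, range 11.9% to 13.6%). In the TBX groups, from TBX2 to TBX5, it made up 9.07% ± 0.573, 9.56% ± 0.463, 8.74% ± 0.574 and 8.45% ± 0.699 (n = 3 each), and the highest TBX library, at 10.1%, was below the lowest control. The share of ANXA5 was higher instead, 12.4% ± 0.504 in the controls and 16.9%, 14.6%, 14.1% and 14.2% in TBX2 to TBX5. ANXA2 held about the same share throughout, 50.6% ± 0.553 in the controls and 48.9% to 51.6% in the TBX groups. The share of ANXA2 sets it against the other annexins summed, so an even share does not show an unchanged level. Of these others, ANXA1, ANXA6, ANXA7 and ANXA11 also had negative log2 fold changes under TMM with every TBX. The ANXA2 counts for each ANXA5 count were 4.10 ± 0.187 in the controls. With TBX2, TBX3, TBX4 and TBX5 they were 2.91 ± 0.270, 3.53 ± 0.112, 3.57 ± 0.281 and 3.60 ± 0.0676. The highest TBX library, at 3.861, was just below the lowest control, at 3.866. There were 1.03 ± 0.0673 ANXA1 counts for each ANXA5 count in the controls, and 0.538 ± 0.0193, 0.654 ± 0.0449, 0.620 ± 0.0549 and 0.598 ± 0.0687 with TBX2, TBX3, TBX4 and TBX5. Per kb of canonical transcript, ANXA1 was above ANXA5 in the controls (62.6 against 52.3 CPM) and below it in all 4 TBX groups (32.4 to 41.0 against 49.9 to 53.7). Per kb of all annotated exons ANXA1 was already below ANXA5 in the controls (19.7 against 29.3 CPM), so this order rests on the length used. Such ratios show unequal levels within a library, not which of the genes differed.

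**Figure D3:**
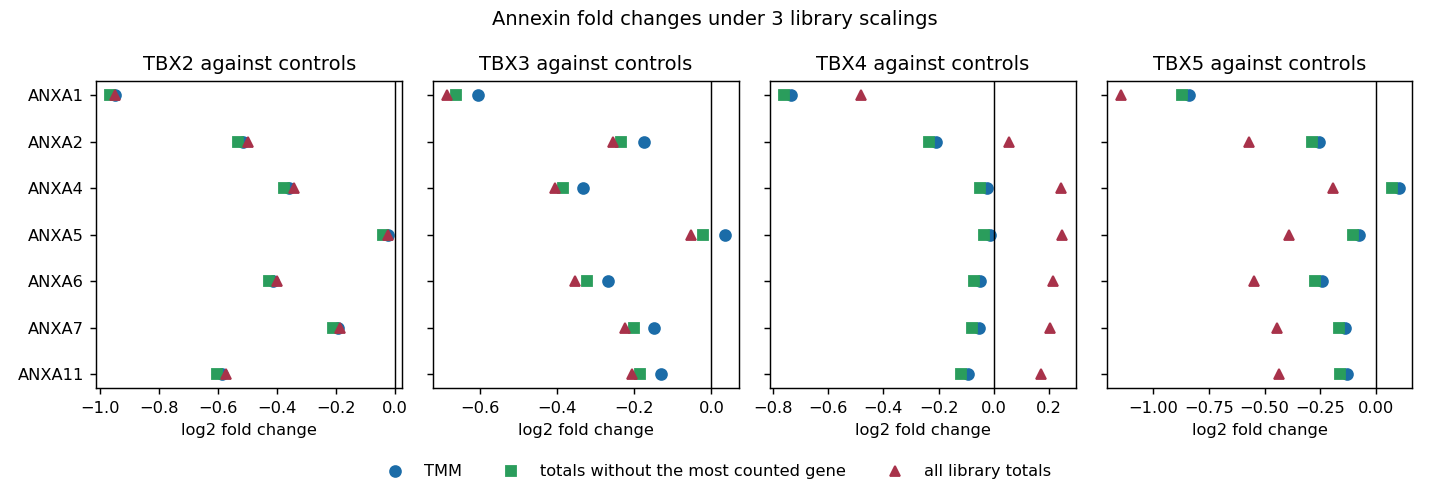
Log2 fold changes of 7 annexins for each TBX against the 6 controls with TMM-scaled libraries (circles), with library totals without the most counted gene (squares) and with all library totals (triangles). With all totals the 7 genes move together, to higher values for TBX4 and lower values for TBX5, and ANXA1 stays the lowest of the 7 in each panel.

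With library totals in place of TMM, the median log2 fold change of all genes lay at 0.25 for TBX4, -0.31 for TBX5 and 0.20 for EV against Ctl, and within 0.1 of 0 for TBX2 and TBX3. The split of all genes called moved too. It was 1319 higher and 997 lower with TBX3 under TMM, and 867 and 1696 with the most counted gene taken out of the totals. For TBX4 it went from 1086 and 945 to 898 and 1221, and for TBX5 from 1021 and 954 to 799 and 1197. With all totals it was 833 and 220 for TBX2, 35 and 0 for TBX3, 2775 and 33 for TBX4, and 37 and 54 for TBX5, against 2651 and 2428 for TBX2 under TMM. ANXA1 was then -0.95, -0.69, -0.48 and -1.15 in the order TBX2 to TBX5. With only the most counted gene taken out of the totals it was -0.96, -0.66, -0.76 and -0.87, close to the TMM values. ANXA2, ANXA4, ANXA5, ANXA6, ANXA7 and ANXA11 were all above the controls with TBX4 under library totals (0.05 to 0.25) and at or below them, -0.21 to -0.01, under TMM.

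The comparisons that the choice of genes did not use were EV against Ctl and the TBX groups against each other. The TBX libraries compared are still those in which ANXA1 and ANXA2 were chosen for being lower. Comparisons among the TBX groups are therefore not fully independent of that choice. The paper names a pORF vector for TBX2 and TBX4 and pCGN for TBX3 and TBX5. Amount of plasmid, and vector where it differed, cannot be told apart from the factor in comparisons among the TBX groups. Between EV and Ctl, 0 of 8 annexins were called by edgeR's quasi-likelihood test, where 0.385% of all genes were, and DESeq2 also called 0. At an unadjusted p under 0.05 there were 2, ANXA1, which was 0.15 ± 0.06 higher in EV (edgeR adjusted p = 0.467), and ANXA4, at -0.22 ± 0.09 (edgeR adjusted p = 0.460).

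Among the 4 TBX groups, 5 of the 8 annexins differed by edgeR's F test in a fit of all 18 libraries, as did 22.7% of all genes. They were ANXA11 (adjusted p = 2.7e-05), ANXA4 (0.00137), ANXA2 (0.00163), ANXA6 (0.0187) and ANXA1 (0.0280). ANXA1 passed 0.1 no longer without TBX2 replicate a (adjusted p = 0.110) or TBX3 replicate c (0.101). ANXA3 (0.213), ANXA5 (0.701) and ANXA7 (0.695) did not pass, which does not show that they were equal.

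In pairs, ANXA11 and ANXA2 were both lower with TBX2 than with each of the other 3 factors. ANXA11 was lower by -0.46 ± 0.07 against TBX3, -0.50 ± 0.07 against TBX4 and -0.46 ± 0.08 against TBX5, with edgeR adjusted p of 7.66e-05, 2.27e-05 and 0.000131. ANXA2 was lower by -0.34 ± 0.07, -0.31 ± 0.07 and -0.26 ± 0.07 (edgeR adjusted p = 0.000844, 0.00276 and 0.0119). ANXA1 was lower with TBX2 than with TBX3 (-0.34 ± 0.09, edgeR adjusted p = 0.00900) but not past the threshold against TBX4 (-0.22 ± 0.08, 0.118) or TBX5 (-0.11 ± 0.09, 0.544). The TBX2 against TBX4 difference of ANXA1 ran from -0.31 to -0.12 when 1 library was left out. It passed by edgeR without TBX2 replicate b (-0.31, adjusted p = 0.0367), TBX4 replicate c (-0.28, 0.0573) or TBX5 replicate a (-0.22, 0.0996).

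ANXA4 separated TBX2 and TBX3 from TBX4 and TBX5. It was lower with TBX2 than with TBX4 (-0.34 ± 0.09, edgeR adjusted p = 0.0213) and TBX5 (-0.46 ± 0.10, 0.00302). It was also lower with TBX3 than with TBX4 (-0.31 ± 0.09, 0.0375) and TBX5 (-0.44 ± 0.10, 0.00714). The TBX3 against TBX4 difference missed 0.1 without TBX3 replicate c (adjusted p = 0.125), TBX4 replicate b (0.102) or TBX4 replicate c (0.114). ANXA6 was lower with TBX2 than with TBX4 (-0.37 ± 0.08, edgeR adjusted p = 0.00591). Without TBX2 replicate b, ANXA6 was also called lower with TBX2 than with TBX3 (-0.26) and TBX5 (-0.29), where it was -0.15 and -0.17 with all libraries. Between TBX3 and TBX4 (-0.22) it passed without TBX2 replicate b or c.

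No annexin was called between TBX4 and TBX5 by edgeR (0 of 8 at an adjusted p of 0.1, and 1 at an unadjusted p under 0.05, ANXA6 at 0.19 ± 0.09). In the 6 pairs, TBX2 against TBX3, TBX4 and TBX5, TBX3 against TBX4 and TBX5, and TBX4 against TBX5, the counts of annexins lower in the factor named first were 3, 4, 3, 1, 1 and 0. Of all genes, 7.51%, 5.61%, 5.69%, 4.02%, 3.11% and 0.430% were lower in them. These calls rest on the scaling. With library totals the F test called 0 annexins, and none was called in the 5 pairs that hold TBX2 or TBX3. The standard errors there were larger while some differences were not smaller: between TBX2 and TBX4, ANXA11 was -0.74 ± 0.27, ANXA6 -0.61 ± 0.27, ANXA4 -0.59 ± 0.28 and ANXA2 -0.55 ± 0.27, where the median of all genes was -0.25. Between TBX2 and TBX5, where that median was 0.32, ANXA2 was at 0.07 and ANXA1 at 0.20, of the opposite sign. Between TBX4 and TBX5, 6 annexins were called higher with TBX4 under library totals, as were 41.9% of all genes, whose median difference was 0.57.

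The 2 S100 partners tested, S100A10 and S100A11, were not called against the 6 controls at the level of RNA. S100A10, the light chain of the ANXA2 complex, was at 44.1 ± 3.94 CPM in the controls (n = 6) and 50.9 ± 11.5, 45.8 ± 5.04, 47.4 ± 5.59 and 47.8 ± 9.86 with TBX2 to TBX5. S100A11, a partner of ANXA1, was at 48.1 ± 2.51 and 48.8 to 49.7. Of the 9 S100 genes listed these 2 were tested, and neither was called in any TBX comparison (log2 fold changes 0.02 to 0.19). Against EV alone S100A10 was called higher with TBX2 (0.31 ± 0.12, edgeR adjusted p = 0.0711). With library totals S100A10 was called higher with TBX4 (0.36 ± 0.15, edgeR adjusted p = 0.0894), where the median of all genes was itself 0.25. S100A6 was at 0 to 3 counts. The formyl peptide receptors, through which secreted ANXA1 acts, were not tested, with FPR1 at 0 to 1 counts, FPR2 at 0 to 2 and FPR3 at 0 to 4 in any library. Of the other annexins, ANXA9 alone was tested and was not called, and ANXA8, ANXA8L1, ANXA8L2, ANXA10 and ANXA13 had at most 2 counts. The processed pseudogene ANXA2P2, whose sequence is close to that of ANXA2 and can share its reads, had 5 to 30 counts and was not called.

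Genes of membrane repair and calcium binding were called lower with TBX2 in 8 of the 12 tested. TBX3 had 6 of them lower, TBX4 had 5 and TBX5 had 4, and none was called higher against the 6 controls. Between the 2 kinds of control, 1 gene of the list was called lower in EV than in Ctl, where 0.385% of all genes were called in either direction. The list's median log2 fold change was -0.31, -0.18, -0.13 and -0.14, where that of all genes was within 0.01 of 0. For comparison, 15.6%, 6.40%, 6.07% and 6.12% of all genes were called lower with TBX2 to TBX5, and for this list and the next lists the members were fixed with earlier results known. The calls and adjusted p of partner genes against the controls therefore describe these libraries and are no independent test. AHNAK, the scaffold bound by ANXA2 and S100A10, was at 1405 ± 39.9 CPM in the controls and 925 ± 55.5 with TBX2. It fell by 0.60 on the log2 scale with TBX2 (SE 0.07, edgeR adjusted p = 5.8e-07) and by 0.23 with TBX4 (0.0114), while TBX3 (-0.16, adjusted p = 0.121) and TBX5 (-0.10, 0.319) did not pass. AHNAK2 fell with all 4, by 0.81, 0.20, 0.22 and 0.20, and so did the ferlin MYOF, which serves membrane fusion, by 0.42, 0.20, 0.29 and 0.31. CAPNS1, the small calpain subunit, was lower with TBX2 (-0.67), TBX3 (-0.32) and TBX4 (-0.24). In alternatives added after the data were seen, 7, 4, 4 and 1 genes of the list were lower against EV alone with TBX2 to TBX5. CHMP4B, a subunit of the ESCRT-III membrane scission complex, was then called higher with TBX2 (0.41) and TBX5 (0.33), and CAV1, the main protein of caveolae, with TBX3 (0.18). TBX5 had 2 genes lower against Ctl alone, and TBX4 had 3 lower without TBX4 replicate c, where CAPNS1 was -0.17. With library totals 3 genes were lower with TBX2 and none with the other 3 factors. AHNAK, AHNAK2 and CAPNS1 then lay 0.03 to 0.04 above the controls with TBX4. AHNAK2 with TBX3 (-0.16) and TBX5 (-0.16), and MYOF with TBX3 (-0.13), did not pass against EV alone.

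Of the 6 plasminogen activation genes tested, 5 were called lower and 1 higher in the TBX2 libraries. For TBX3 these counts were 3 and 1, for TBX4 0 and 1, and for TBX5 1 and 1. The gene that rose was in each case SERPINE2, a protease inhibitor, from 2.95 ± 0.296 CPM in the controls by 0.88, 0.53, 0.50 and 1.04. PLAT, tissue plasminogen activator, fell with TBX2 (-0.70 ± 0.16, edgeR adjusted p = 0.00277) and TBX5 (-0.77 ± 0.18, 0.00823). PLAU, urokinase, fell with TBX2 (-0.24) and TBX3 (-0.46), and 31.0% of its exon bases are shared with an overlapping gene. Of all genes, 17.0%, 8.47%, 6.97% and 6.55% were called higher with TBX2 to TBX5, and the shares called lower are those given for the membrane repair genes. Between the 2 kinds of control, 1 gene of this list was called higher in EV than in Ctl, where 0.385% of all genes were called in either direction. Against Ctl alone 3, 2, 1 and 1 genes were called lower with TBX2 to TBX5, and against EV alone 3, 2, 1 and 2. The gene lower with TBX4 was PLAT against Ctl alone (-0.42) and PLAUR, the urokinase receptor, against EV alone (-0.21). With library totals 1 gene was lower and 1 higher with TBX2, 0 and 0 with TBX3, 0 and 1 with TBX4, and 1 and 0 with TBX5. PLAU with TBX2 (-0.13) did not pass against Ctl alone, nor SERPINE2 with TBX3 (0.45) or TBX4 (0.42) against EV alone.

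Of 4 genes of phospholipase A2 and prostaglandin synthesis tested, 2 rose with TBX2, where 17.0% of all genes were called higher. None was called with TBX3, TBX4 or TBX5. With library totals 1 of the 4, PLA2G6, was called higher with TBX4 (0.63). Under that scaling 2775 of 15576 genes were called higher with TBX4, and the median of all genes was 0.25. PLA2G4C, a membrane-bound cytosolic phospholipase A2, rose by 1.87 ± 0.13 (edgeR adjusted p = 6.31e-10), from 3.37 ± 0.576 CPM to 12.2 ± 0.753. PLA2G4A, another cytosolic phospholipase A2, had 0 to 5 counts. Of 6 glucocorticoid response genes tested, 2 were higher and none lower in the TBX2 libraries. For TBX3 the counts were 4 and 1, for TBX4 1 and 1, and for TBX5 1 and 0, beside 17.0%, 8.47%, 6.97% and 6.55% of all genes called higher. With Ctl controls alone 3 were higher and 2 lower with TBX2. With EV controls alone the counts were 1 and 0 for TBX2, 4 and 0 for TBX3, 0 and 0 for TBX4 and 1 and 0 for TBX5. With library totals 1 was higher with TBX2 and 1 with TBX4, and 0 were called with TBX3 or TBX5. NR3C1, the glucocorticoid receptor, rose with TBX3 (0.30 ± 0.07, edgeR adjusted p = 0.00476), as did DUSP1 (0.85 ± 0.14, 0.000255). SGK1 rose with all 4 (0.30, 0.50, 0.23 and 0.61) and was called higher in the EV libraries against Ctl (0.34, edgeR adjusted p = 0.0733). Against EV alone SGK1 was 0.15 with TBX2 and 0.07 with TBX4, which did not pass. PER1 rose with TBX2 (0.52) and TBX3 (0.40), FKBP5 fell by 0.21 with TBX3 (edgeR adjusted p = 0.0978) and by 0.23 with TBX4 (0.0850), neither of which passed against EV alone (-0.12 and -0.13), and TSC22D3 was at 0 to 3 counts.

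**Figure D4:**
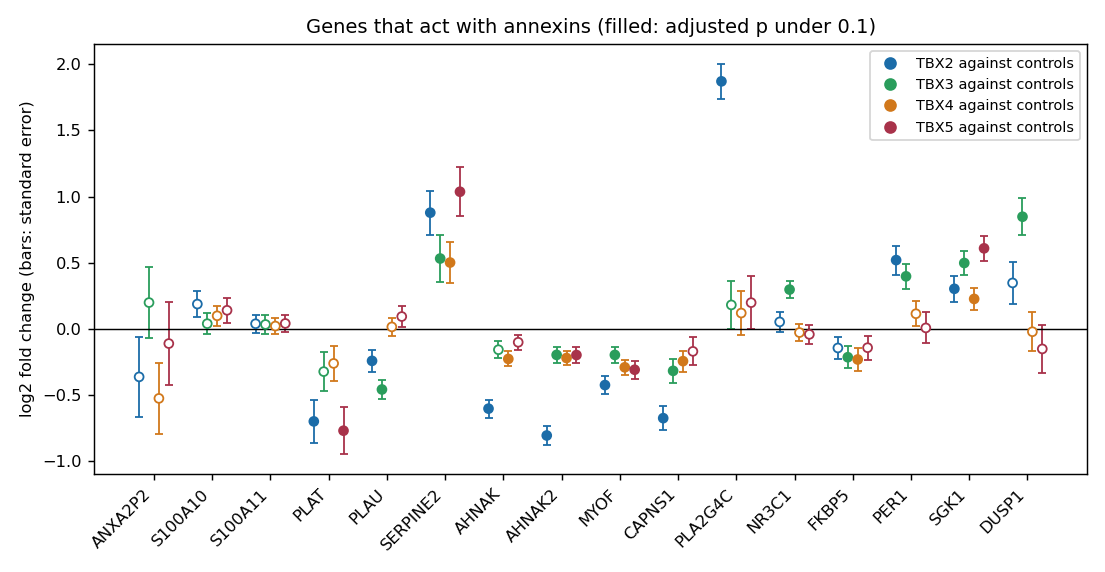
Log2 fold changes (points) with standard errors (bars) of genes that act with annexins, for each TBX against the 6 controls; filled points passed an adjusted p of 0.1. S100A10 and S100A11 are open in all 4 comparisons, AHNAK2 and MYOF are filled below 0 in all 4, and PLA2G4C reaches 1.87 with TBX2.

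The genes whose pattern over the 18 libraries was most like that of ANXA1, among 8012 genes with a mean of at least 10 CPM, were AXL (Pearson r = 0.96), TM4SF1 (0.94), G3BP1 (0.94), FADS1 (0.94) and SMS (0.94). AXL, a receptor tyrosine kinase, fell by 0.87, 0.54, 0.61 and 0.65 from TBX2 to TBX5. The genes most like ANXA2 were SHC1 (0.97), EIF4B (0.97), TUBB6 (0.96), TUBA1A (0.96) and EMP3 (0.96). Within the family, ANXA2 was closest to ANXA11 (r = 0.90) and to ANXA1 (0.86), and ANXA5 was at 0.05 to 0.27 with ANXA1, ANXA2, ANXA6, ANXA7 and ANXA11. These are descriptions over 18 libraries in 6 groups that share their scaling and their group differences, with no test.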

How the data were processed

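RNA-seq was carried out on 18 libraries of NCI-H1299 cells in 6 groups of 3. The authors aligned reads to GRCh37 with STAR 2.3.0 and assigned them to Ensembl genes with featureCounts at default settings, and deposited raw counts per gene without normalization. With those settings strand is ignored, and reads that map to several places or to overlapping genes are not counted, which can lower genes with near copies such as ANXA2. Groups and replicate letters came from the labels. Gene positions and lengths came from GENCODE v44 on GRCh37, not the annotation the counts were made with.

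Here, each TBX was compared with the 6 pooled controls by the quasi-likelihood test of edgeR 4.0.16 (R 4.3.3) with TMM scaling, on the 15576 genes that exceeded 5 counts in 10 or more of the libraries, with Benjamini-Hochberg adjustment and a threshold of 0.1. TBX groups were compared in 1 fit of all 18 libraries. The standard error of a log2 fold change was its size divided by the root of its F statistic. Scripts were tested on simulated data. DESeq2 1.42.0, other scalings and filters, a stricter threshold, separate controls and leaving out each library were alternatives; those for partner genes were chosen after seeing the data. The 2 libraries of a group most alike differed by more than sampling noise, so each counted once.

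The members and gene lists were chosen with earlier results of these data known, and some genes are not reported here. Named genes are the 8 annexins, a fixed set of partners, the called gene with the largest fold change in each list and comparison, and the 5 genes most correlated with ANXA1 and ANXA2. Other genes are named where a count or comparison turned on them. The floor of 3 counts covers counting error only, while SDs and standard errors include the spread between libraries.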

Additional observations from a re-analysis of the deposited data

How the results depend on the processing

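Counts of annexins against the controls describe genes chosen on those contrasts and test nothing. The number of annexins called stayed within 1.5 times its value under DESeq2, DESeq2's size factors, totals without the most counted gene, both count filters, an FDR of 0.05, 1 fit of all 18 libraries, the 12 TBX libraries alone, EV controls alone and ANXA2 summed with its pseudogenes. With library totals it was 2 for TBX2, 0 for TBX3, 1 for TBX4, 1 for TBX5 and 0 for differences among the TBX groups, against 5, 4, 2, 3 and 5. ANXA2 then changed sign for TBX4 against controls (0.053) and for TBX2 against TBX5 (0.07). With Ctl controls alone it was 2 for TBX3. Leaving out 1 library at a time gave 5 to 6 for TBX2, 3 to 4 for TBX3, 1 to 2 for TBX4, 2 to 3 for TBX5, 0 for EV against Ctl and 4 to 5 among the TBX groups. The TBX4 count of 1 came without TBX4 replicate c, the TBX3 count of 3 without TBX3 replicate b, the TBX5 counts of 2 without TBX5 replicate b or c, and the TBX2 counts of 6, with ANXA7, without Ctl replicate b or TBX2 replicate b. ANXA3 between TBX2 and TBX4 passed without TBX5 replicate a or b. With a replicate block the counts were 5, 4, 2, 3, 0 and 5, but the letters do not pair the samples: deviations of libraries with the same letter correlated at -0.10 to 0.16. The ANXA4 difference between TBX3 and TBX4 also missed the threshold with no filter on low counts (-0.31). With library totals the standard error of ANXA1 for TBX2 was 0.19, against 0.07; otherwise the cause of these changes was not tested. Depth limits what can be read for ANXA3, and for the genes at or near 0 a difference was not detectable. Among the partner genes, SERPINE2 and FKBP5 with TBX3 and TBX4, CAPNS1 with TBX3 and SGK1 with TBX4 were not called by DESeq2, and FKBP5 changed sign with TBX4 under library totals (0.038). List counts also moved with DESeq2. Plasminogen activation genes called lower numbered 4 with TBX2 and 2 with TBX3, against 5 and 3 by edgeR. Membrane repair genes called lower with TBX5 numbered 3, against 4.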
